A study of Homo sapiens with 52 samples.

Results

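The genes described here are 10 factors that cut, polyadenylate or protect pre-mRNA and that bear on polyadenylation inside introns, namely CPSF1, CPSF3, CSTF2, CSTF3, CPSF6, NUDT21, PCF11, CDK12, SNRNP70 and U2AF2. They were chosen by name, as 10 of the 78894 genes in the deposited gene tables, and all 10 passed the low-count filter in every cell line. Bulk poly(A)-selected, stranded RNA was sequenced from 52 samples of 3 established human triple-negative breast cancer cell lines that are described as claudin-low (MDA-MB-231 with 18 samples, SUM159PT and HS578T with 17 each). Each line had 6 groups. Cells were reverse transfected at 20 nM with a non-targeting siRNA (siNT), with siNRP1#3, which targets only the transmembrane form of NRP1, or with siNRP1#5, which targets both its transmembrane and soluble forms, and RNA was taken at 72 hrs. Other cells were transduced with lentiviral pLKO.1 vectors that hold shNRP1#3, shNRP1#5 or a control shRNA without a target (shNT), and selected with puromycin. Like the siRNAs, shNRP1#3 targets only the transmembrane form and shNRP1#5 both forms. By the study's methods siNRP1#5 and shNRP1#5 share their sequence, whereas siNRP1#3 and shNRP1#3 differ in sequence. Of the 18 groups, 16 had 3 samples and 2 had 2 samples (SUM159PT siNRP1#5 and HS578T shNRP1#3). The shRNA replicates were passages of the same transduced cells, so their p-values measure the spread between passages. In bulk RNA, fewer cells that express a gene and less RNA per cell cannot be told apart.

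A pre-mRNA normally ends where CPSF, CstF and the cleavage factors CFIm and CFIIm assemble on a poly(A) signal behind the last exon. Introns hold such signals too, and their use gives a short transcript that ends inside the gene. The U1 snRNP bound at the 5′ splice site, U2AF at the 3′ splice site and the CDK12 kinase that keeps RNA polymerase II elongating are known to favour splicing over such early ends. NRP1, a co-receptor for several growth factors, is itself a gene of this kind, since its soluble form comes from transcripts that run into an intron in place of splicing to the exons for the membrane part. PCF11 and CSTF3 are known to hold intronic poly(A) sites in their own genes.

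Sequencing depth lay between 25310443 and 72003442 expected counts per sample, with a median of 44804505. The lowest expected count of any factor in any sample was 276, for CSTF3, and the highest was 35882, for U2AF2. NRP1 had a log2 fold change below 0 in all 12 knockdown comparisons, between -4.88 (MDA-MB-231 siNRP1#5) and -0.70 (MDA-MB-231 siNRP1#3, where it was -0.02 on TPM), and passed the test in 11 of them, the exception being HS578T shNRP1#3 (-1.59, adjusted p = 0.0690). Among claudin-low markers, CLDN4 was at 0.860 to 6.05 CPM in the non-targeting (NT) controls of SUM159PT and HS578T but at 129 to 183 CPM in those of MDA-MB-231, where CLDN7 was also present at 14.3 to 39.5 CPM. CDH1 was at or below 1.55 CPM and VIM at or above 2383 CPM in every NT control. The 3 HS578T siNRP1#5 libraries held 12.0 to 22.7% of the level of 3 genes that NT controls show in MDA-MB-231 and not in HS578T, and 13.3 to 23.1% over 94 such genes picked by a wider rule chosen after seeing the data. In the other 14 HS578T samples the 3 genes were at 0 to 6.70%. The highest of these were the siNRP1#3 libraries, at 1.94, 2.90 and 6.70% (2.71, 3.30 and 7.16% by the wider rule). The part of these markers in the HS578T siNRP1#3 results was not tested. The 3 HS578T siNRP1#5 libraries also held 0.020 to 6.74% of 11 SUM159PT markers (1.91 to 8.87% over 60 by the wider rule), against at most 0.0766% (1.20%) in the other HS578T samples. In the SUM159PT and MDA-MB-231 samples, markers of the other lines were at 0 to 2.31%. The highest was the third MDA-MB-231 shNRP1#3 library, at 2.31% of 57 SUM159PT markers and 1.90% of 61 HS578T markers. The part of these in its results was not tested.

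Early-ending transcripts of NRP1, PCF11 and CSTF3 are shown first, each by the place where it leaves the spliced path. CSTF3-202, the more abundant early-ending form of CSTF3 (mean share 35.3%, against 11.1% for CSTF3-203), is not among them. The first line of each pair holds the last 10 bases of an exon and the first 20 of the intron behind it, with the first 6 intron bases, the 5′ splice site that U1 reads, in capitals. The second line holds the last 30 bases before the annotated end, with the poly(A) signal AATAAA in capitals where it is there. All lie on GRCh38 and are written 5′ to 3′ on the transcribed strand.
NRP1-204 5′ splice site, chr10:33197630-33197659 (minus): atacaatcagGTATCAaataaaatacgaaa
NRP1-204 end, chr10:33197621-33197650 (minus): ggtatcaAATAAAatacgaaatgtgacaga
PCF11-207 5′ splice site, chr11:83157622-83157651 (plus): aaccgccaagGTTTTTatacaccccgcagc
PCF11-207 end, chr11:83158850-83158879 (plus): aaaatttgtgAATAAAacatataaaatatg
CSTF3-203 5′ splice site, chr11:33141647-33141676 (minus): tgaagcagagGTTACTattttattttattt
CSTF3-203 end, chr11:33140966-33140995 (minus): ttcatgattatggttaggaggaaaatgtta
CSTF3-203, after the end, chr11:33140917-33140946 (minus): agtaaaaatgatAATAAAagttttaatgtg

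NRP1-204 passed the end of exon 12 of NRP1-206, the full-length form, and stopped 29 bases into an intron of 5231 bases, so its 5′ splice site and its AATAAA lie almost on top of each other. The hexamer began 23 bases before the annotated end. PCF11-207 is a transcript of 1 exon that ran 1248 bases past exon 1 of PCF11-208 into an intron of 3695 bases, and its AATAAA began 20 bases before the end. CSTF3-203 ran 701 bases past exon 3 of CSTF3-201 into an intron of 33248 bases. Its last 60 bases held no AATAAA, and the nearest one began at base 32 behind the annotated end. AATAAA or ATTAAA, read on the transcribed strand only, stood in the last 60 bases of 36.3% of all 252835 annotated transcripts, of 29 of the 80 transcripts of the factors (36.2%) and of 5 of the 41 (12.2%) that end before the last exon of the factor's most abundant coding transcript.

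The levels of the factors in the NT controls are given first, as counts scaled to each library's TMM-normalised total (CPM), as the mean of 6 samples a line with the SD. Levels of different genes were compared only in TPM, which corrects for length. By mean TPM, U2AF2 (215 in MDA-MB-231, 198 in SUM159PT, 146 in HS578T) and SNRNP70 (252, 170 and 173 in the same order) were the most abundant of the 10, and PCF11 (11.7, 10.6 and 6.57) and CDK12 (21.8, 15.8 and 5.98) were among the 3 lowest in each line. Between lines, 15 of 30 comparisons of the factors passed the test, 4 higher and 11 lower in the first-named line (edgeR quasi-likelihood test, Benjamini-Hochberg adjusted p under 0.05), against 67.1% of all genes tested (31.9% higher, 35.2% lower). The background was 73.2% for HS578T against MDA-MB-231, 66.4% for HS578T against SUM159PT and 61.7% for MDA-MB-231 against SUM159PT. In limma on TPM the number was 20 of 30, against 68.8% of all genes. That fit added CPSF1 (log2 0.42), CDK12 (0.62) and SNRNP70 (0.67) in MDA-MB-231 against SUM159PT, CSTF2 (-1.11), PCF11 (-0.80), SNRNP70 (-0.58) and U2AF2 (-0.66) in HS578T against MDA-MB-231, and U2AF2 (-0.48) in HS578T against SUM159PT. On TPM the median log2 value of all genes was itself 0.20, -0.46 and -0.235 in these comparisons, in the same order.

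**Figure D1:**
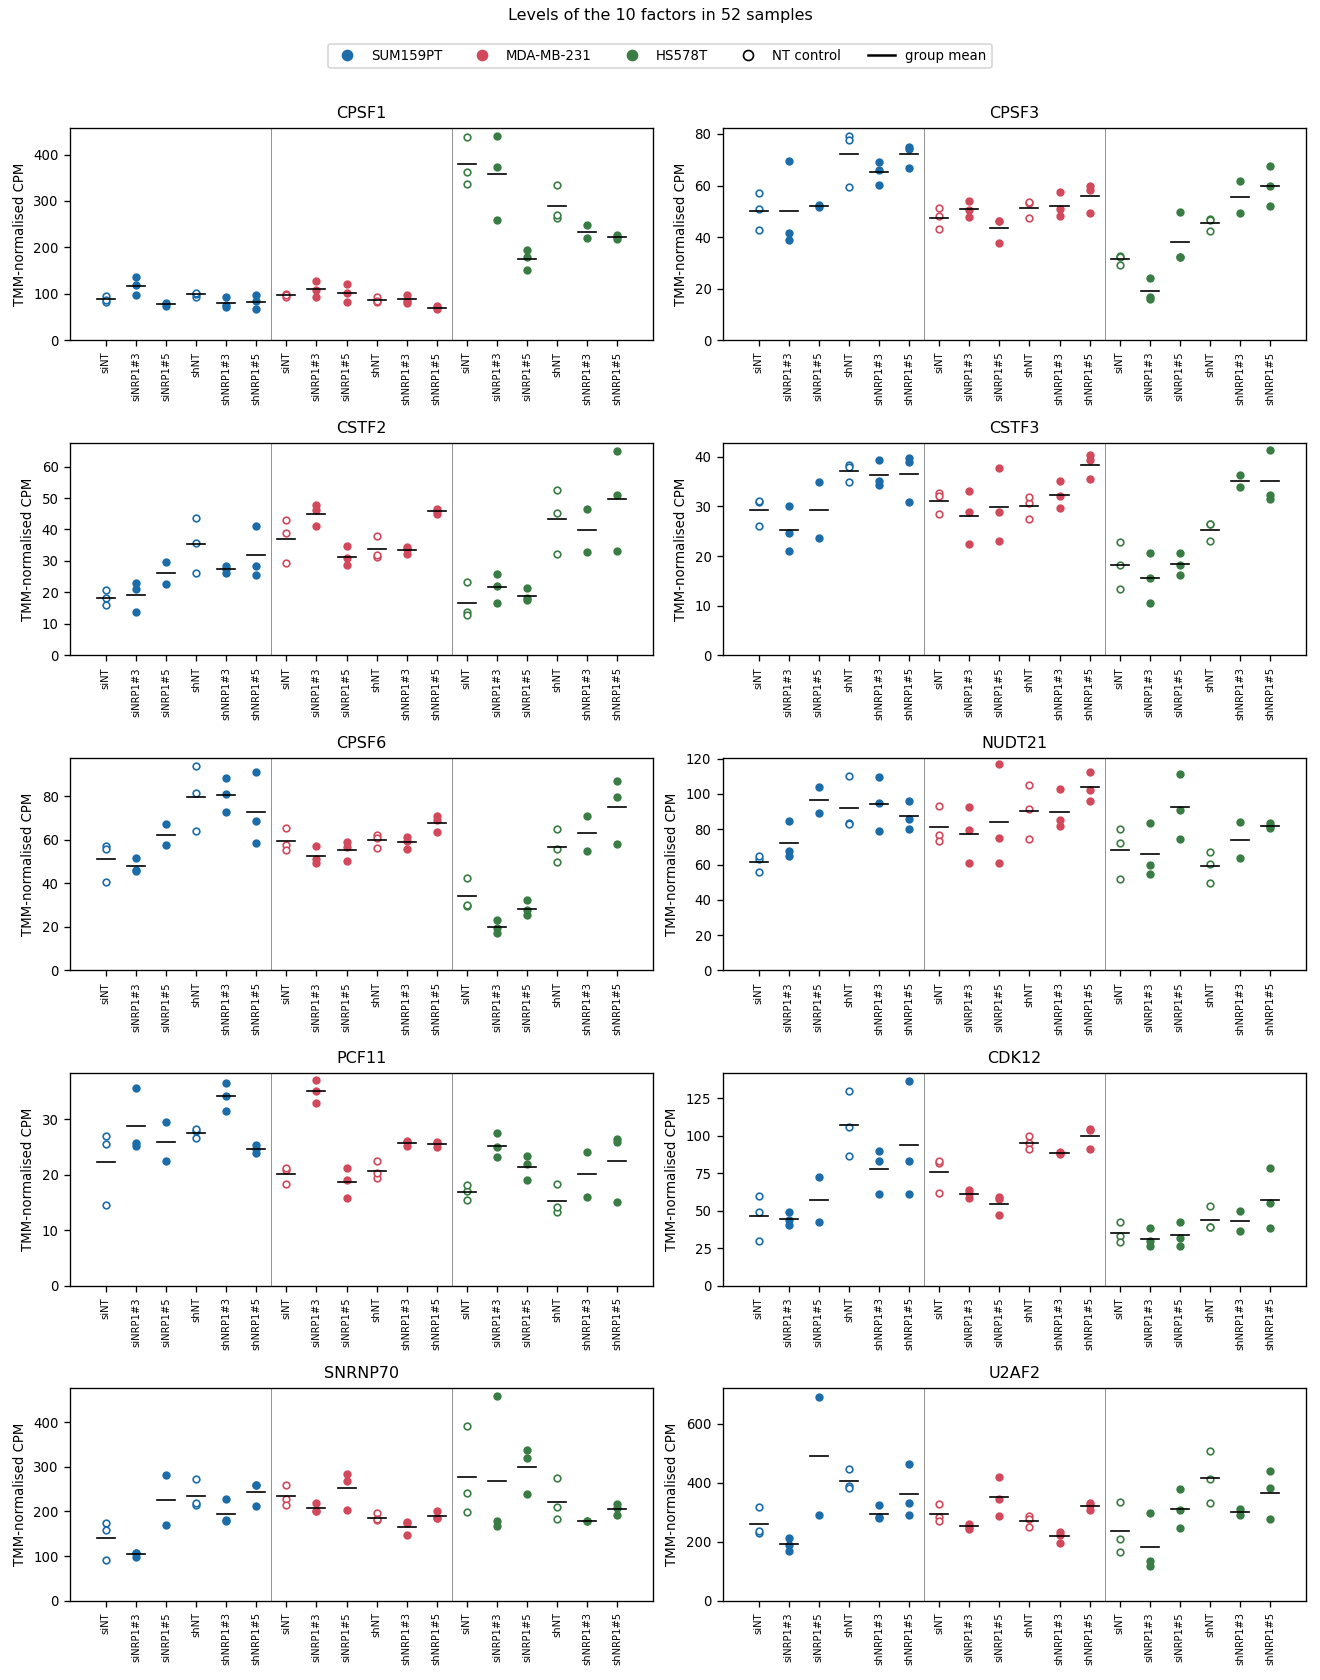
TMM-normalised CPM (vertical axes, from 0) of the 10 factors in all 52 samples, grouped by cell line (colour) and treatment, with open points for siNT and shNT and a line at each group mean. CPSF1 stood at 262 to 438 CPM in the HS578T controls and at 82.2 to 103 CPM in those of the other lines, and PCF11 in MDA-MB-231 siNRP1#3 stood above every other MDA-MB-231 group.

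CPSF1, the large scaffold subunit of CPSF, showed the widest difference between lines on the CPM scale. It was at 82.9, 95.4 and 87.4 CPM in siNT and 93.0, 100.2 and 103 CPM in shNT of SUM159PT, at 93.0, 99.7 and 97.9 CPM in siNT and 92.1, 82.2 and 83.6 CPM in shNT of MDA-MB-231, and at 336, 363 and 438 CPM in siNT and 262, 334 and 269 CPM in shNT of HS578T. All 6 HS578T controls lay above all 12 others, which overlapped. HS578T was 3.67-fold above MDA-MB-231 (log2 1.88 ± 0.10 SE, adjusted p = 1.19e-11) and 3.53-fold above SUM159PT (log2 1.82 ± 0.10, adjusted p = 3.09e-11), while MDA-MB-231 and SUM159PT differed by -0.05 ± 0.10 (adjusted p = 0.649). On the TPM scale the first of these differences was smaller, at a log2 value of 0.91 (adjusted p = 1.95e-07), the second was 1.33 and the third was 0.42 (adjusted p = 0.00103), and CDK12 in HS578T against MDA-MB-231 was the widest at -1.79. On that scale the median of all genes in HS578T against MDA-MB-231 was -0.46.

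CPSF3, the endonuclease that cuts the RNA, ran the other way, with SUM159PT at 61.2 ± 14.6, MDA-MB-231 at 49.5 ± 4.09 and HS578T at 38.4 ± 7.89 CPM (SD, n = 6). HS578T was below SUM159PT by -0.68 on the log2 scale and below MDA-MB-231 by -0.37, and MDA-MB-231 was below SUM159PT by -0.31. The last of these differences was 0.13 in a fit of TPM values. The difference from MDA-MB-231 was lost without the samples numbered 1 or 3 (adjusted p = 0.0802 and 0.0595), as was that between MDA-MB-231 and SUM159PT (adjusted p = 0.241 and 0.146). Over shNT alone the former was -0.16 (adjusted p = 0.375), and over siNT alone the latter was -0.10 (adjusted p = 0.626). CSTF3, the scaffold of CstF, was at 33.2 ± 4.82, 30.6 ± 2.09 and 21.7 ± 5.09 CPM in the same order and lower in HS578T than in SUM159PT (log2 -0.63) and MDA-MB-231 (log2 -0.50; over shNT alone -0.23, adjusted p = 0.276). CSTF2, the CstF subunit that binds GU-rich RNA behind the cut, was at 26.8 ± 10.9, 35.4 ± 5.32 and 30.0 ± 16.4 CPM, and only MDA-MB-231 against SUM159PT passed (log2 0.46, adjusted p = 0.0329). That difference was -0.09 over shNT alone, and it was lost without the samples numbered 1 or 2 (adjusted p = 0.184 and 0.229).

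Of the cleavage factor CFIm, CPSF6 was at 65.4 ± 19.2, 59.5 ± 3.87 and 45.5 ± 14.1 CPM in SUM159PT, MDA-MB-231 and HS578T, and lower in HS578T than in either other line (log2 -0.54 and -0.41, the second lost without the samples numbered 2, adjusted p = 0.0894, and -0.05 over shNT alone, adjusted p = 0.826, against -0.78 over siNT alone). Its partner NUDT21, which reads UGUA elements, was at 76.7 ± 19.8, 85.8 ± 12.9 and 63.6 ± 12.0 CPM and lower in HS578T than in MDA-MB-231 (log2 -0.41; adjusted p = 0.0798 without the samples numbered 3, 0.2996 over siNT alone and 0.0814 on TPM). PCF11, the CFIIm subunit that links cleavage to the release of the polymerase, was at 24.9 ± 5.23, 20.4 ± 1.43 and 16.0 ± 2.12 CPM. It was lower in HS578T than in SUM159PT (log2 -0.64; adjusted p = 0.0703 without the samples numbered 1 and 0.115 over siNT alone), and neither neighbour in that order differed past the threshold (adjusted p = 0.0867 and 0.0604).

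For CDK12 the mean was 85.5 ± 13.6 CPM in MDA-MB-231, 76.9 ± 37.5 in SUM159PT and 39.4 ± 8.22 in HS578T. HS578T was below MDA-MB-231 by -1.10 (adjusted p = 1.23e-05) and below SUM159PT by -0.86 (adjusted p = 0.000219) on the log2 scale. The latter was -0.41 over siNT alone (adjusted p = 0.152) and -1.30 over shNT alone. SNRNP70, the U1-70K protein of the U1 snRNP, was at 189 ± 62.4 (SUM159PT), 210 ± 30.2 (MDA-MB-231) and 249.9 ± 77.1 CPM (HS578T), and only HS578T against SUM159PT passed (log2 0.44, adjusted p = 0.0298), a difference that was -0.09 over shNT alone and was lost without the samples numbered 2 or 3 (adjusted p = 0.107 and 0.0918) and in the fit of TPM (0.10, adjusted p = 0.611). U2AF2, which binds the polypyrimidine tract, was at 333 ± 88.7, 283 ± 25.6 and 326 ± 128 CPM in the same lines and showed no difference past the threshold on this scale.

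These control levels were set beside the share of NRP1 that the authors' isoform percentages give to NRP1-204. SUM159PT had a share of 10.4 ± 4.69%, MDA-MB-231 of 23.2 ± 3.30% and HS578T of 24.9 ± 4.78% (SD, n = 6), so that the controls of SUM159PT, at 2.86 to 15.8%, lay below all 12 others, which began at 18.7% and overlapped each other. By mean CPM, SNRNP70 was the 1 factor in the same order as the share (189, 210 and 249.9 CPM), and CPSF3, CSTF3, CPSF6 and PCF11 were in the opposite order. By mean TPM, CPSF1 was the 1 factor in the same order (43.4, 58.1 and 111) and none was in the opposite one. An order over 3 lines is a description and has no test.

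Within the groups, where the differences between lines and between siNT and shNT are removed, 0 of 10 factors showed a relation to the NRP1-204 share that held after adjustment over the 10 (exact two-sided permutation within groups over 46656 arrangements, 18 samples). At an unadjusted p under 0.05 the number was also 0. CSTF2 came nearest on the CPM scale, with Pearson r = -0.49 (exact permutation p = 0.0536, adjusted p = 0.488) and Spearman rho = -0.45 (exact permutation p = 0.0763, adjusted p = 0.623), and r was -0.65 without the 2 samples farthest from the median. CPSF1 had r = -0.41 (exact permutation p = 0.0975, adjusted p = 0.488; -0.34 without those 2) and rho = -0.39 (exact permutation p = 0.132, adjusted p = 0.623), and PCF11 had r = 0.33 (exact permutation p = 0.446, adjusted p = 0.722) and rho = 0.18 (exact permutation p = 0.580, adjusted p = 0.786), with r turning to -0.19 without those 2. On log2(TPM + 0.5), CSTF2 had r = -0.27 (exact permutation p = 0.289, adjusted p = 0.738), and PCF11 came nearest, with r = 0.56 (exact permutation p = 0.0623, adjusted p = 0.527) and rho = 0.55 (exact permutation p = 0.0514, adjusted p = 0.514).

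**Figure D2:**
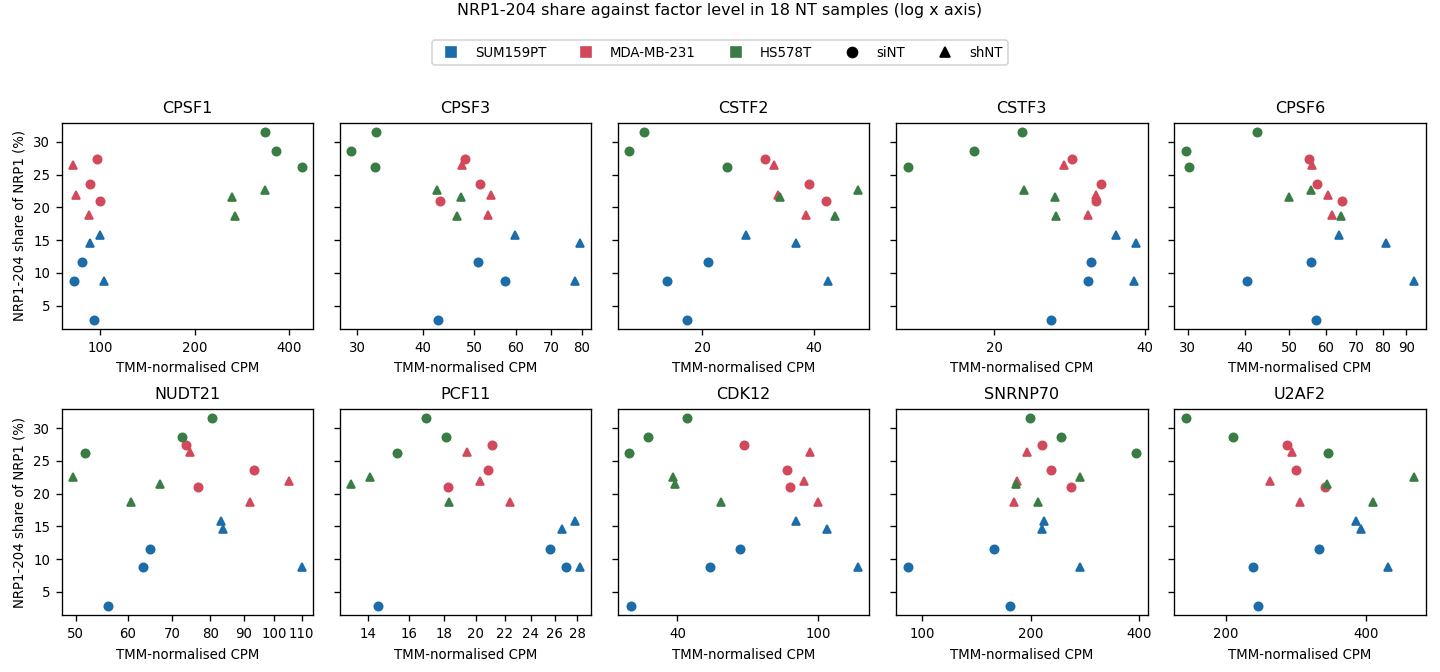
Share of NRP1 assigned to NRP1-204 (vertical axes, %) against the TMM-normalised CPM of each factor (horizontal log axes) in the 18 NT controls, coloured by cell line, with circles for siNT and triangles for shNT. SUM159PT stood apart at 2.86 to 15.8%, the other lines, from 18.7%, overlapped each other, and within a group no factor held a relation after adjustment.

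After NRP1 knockdown the 10 factors stayed mostly near their controls. Of 120 comparisons of a factor with the NT control of its own line and delivery, 6 passed the test (4 higher and 2 lower, 5%), against 11.3% of all genes tested (5.31% higher, 6.01% lower), and 20 had an unadjusted p under 0.05. The share of all genes at an unadjusted p under 0.05 was not counted, here or in later comparisons. The median log2 fold change of the 10 factors lay between -0.20 and 0.38 over the 12 comparisons. The split between directions moved with the scaling, with 5 higher and 4 lower in DESeq2 and 1 higher and 3 lower in limma on TPM. The comparisons with siNRP1#3 and siNRP1#5 of a line share their siNT samples, and those with shNRP1#3 and shNRP1#5 share shNT. Only PCF11 with siNRP1#3 in MDA-MB-231 and CPSF1 with siNRP1#5 in HS578T passed under all 11 alternatives run for each, leaving out any single library included.

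**Figure D3:**
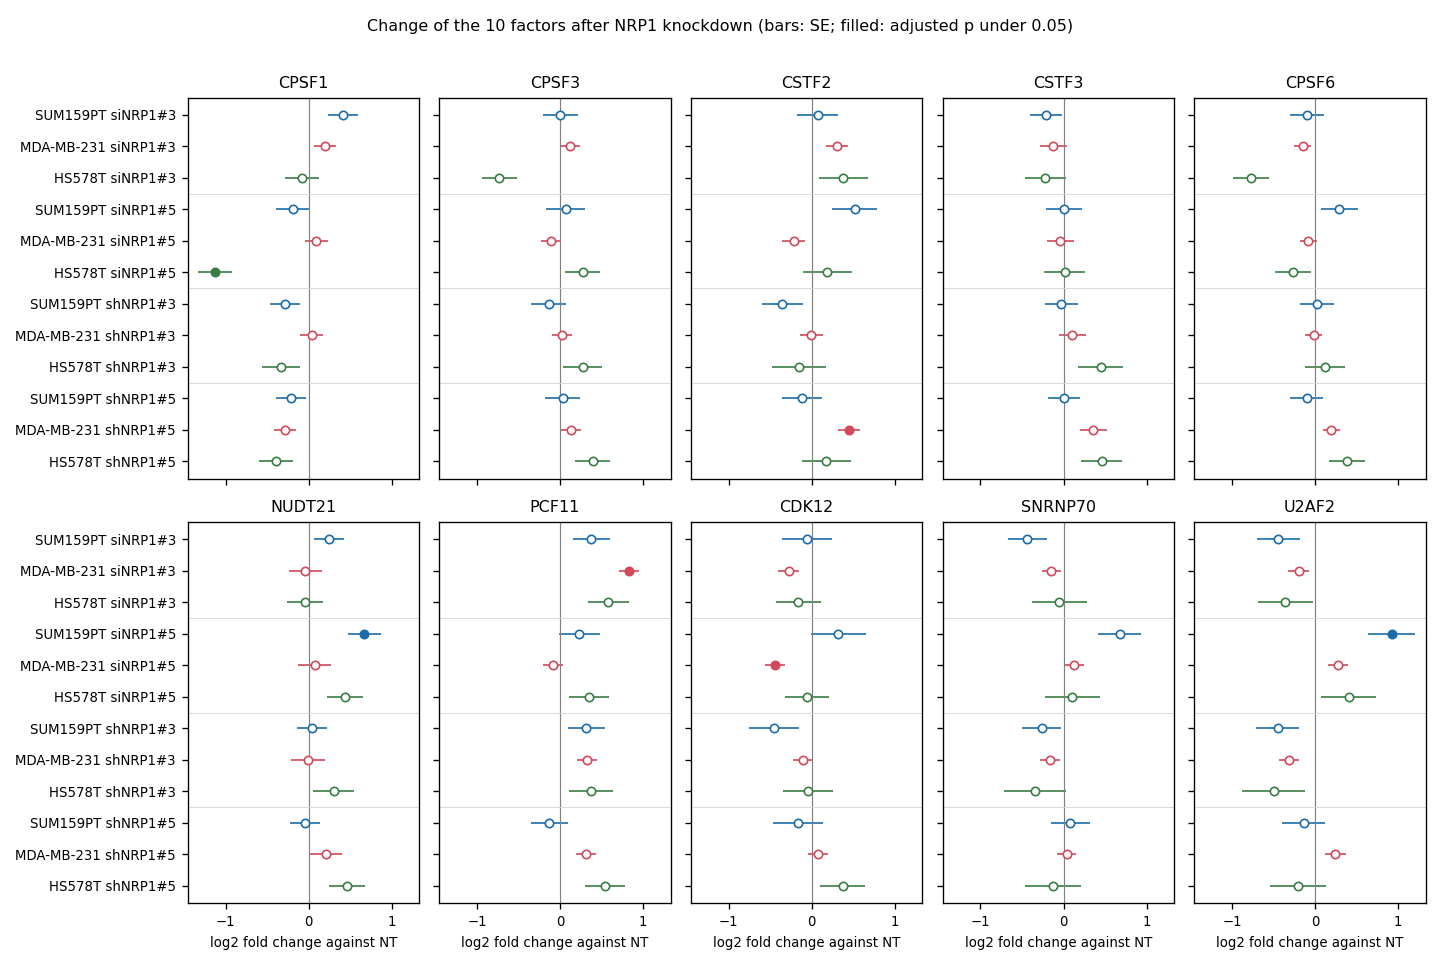
Log2 fold change against the NT control (horizontal axes) of the 10 factors in the 12 knockdown comparisons, with bars for the SE and filled points where the adjusted p was under 0.05. The 6 filled points are PCF11 in MDA-MB-231 siNRP1#3 (0.82), CPSF1 in HS578T siNRP1#5 (-1.12), CDK12 in MDA-MB-231 siNRP1#5 (-0.44), CSTF2 in MDA-MB-231 shNRP1#5 (0.45), and NUDT21 (0.67) and U2AF2 (0.92) in SUM159PT siNRP1#5.

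PCF11 rose with siNRP1#3 in MDA-MB-231, from 20.8, 18.2 and 21.1 CPM in siNT to 32.9, 35.0 and 37.1 CPM. The groups did not overlap. The change was 1.77-fold (log2 0.82 ± 0.12 SE, adjusted p = 6.24e-05), in a comparison where 25.7% of all genes were called, and it lay between 0.75 and 1.04 on the log2 scale over the alternatives. With siNRP1#5 of the same line PCF11 stood at 21.3, 15.8 and 19.1 CPM (log2 -0.08 ± 0.12, adjusted p = 0.641).

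With the shRNAs, PCF11 in MDA-MB-231 went from 22.4, 19.4 and 20.2 CPM in shNT to 25.2, 26.1 and 25.9 CPM with shNRP1#3 and 25.9, 25.0 and 25.7 CPM with shNRP1#5. All 6 knockdown samples stood above the 3 controls, yet neither difference passed in the fit of the whole line (log2 0.32, adjusted p = 0.163, and log2 0.31, adjusted p = 0.0681). In edgeR on the 2 groups alone both passed (adjusted p = 0.0446 and 0.0273), and in DESeq2 only the second did (adjusted p = 0.0304). With siNRP1#3 in HS578T, PCF11 was at 27.4, 23.1 and 24.9 CPM against 17.0, 18.1 and 15.4 in siNT, again without overlap (log2 0.58 ± 0.24, adjusted p = 0.190). In SUM159PT siNRP1#3 it was at 25.1, 25.7 and 35.7 CPM against 27.0, 14.5 and 25.6, and those groups overlapped (log2 0.37 ± 0.22, adjusted p = 0.318).

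CPSF1 fell with siNRP1#5 in HS578T, from 336, 363 and 438 CPM in siNT to 178, 151 and 194 CPM, to 0.459 of the control (log2 -1.12 ± 0.21 SE, adjusted p = 0.00181), where 18.7% of all genes were called. The groups did not overlap, and the change stayed between -1.20 and -1.0 over its alternatives. It remained above the level of the other lines' controls, of which the highest was 103 CPM. These are the 3 libraries that hold markers of MDA-MB-231 (12.0 to 22.7%) and, in 1 of them most, of SUM159PT (0.020 to 6.74%), both lines with less CPSF1, and the part of this in the result was not tested.

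The other HS578T knockdowns placed CPSF1 at 372, 260 and 439 CPM with siNRP1#3, and at 248 and 220 CPM with shNRP1#3 and 223, 218 and 227 CPM with shNRP1#5 against 262, 334 and 269 CPM in shNT. All 5 shRNA knockdown samples were below the 3 controls, and neither shRNA difference passed (log2 -0.33, adjusted p = 0.820, and log2 -0.39, adjusted p = 0.301). In SUM159PT and MDA-MB-231 siNRP1#5, CPSF1 changed by -0.19 ± 0.20 and 0.09 ± 0.14 on the log2 scale, neither past the threshold.

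The change of each factor was then compared between the 3 lines for each of the 4 treatments. Of these 40 tests 1 passed, CPSF1 with siNRP1#5 (F test over the 3 lines, adjusted p = 0.000658), in a comparison where 18.2% of all genes were called (3.42% with siNRP1#3, 0.747% with shNRP1#3 and 3.81% with shNRP1#5), and 4 had an unadjusted p under 0.05. Without the HS578T siNRP1#5 libraries 0 of 40 passed in edgeR and 5 had an unadjusted p under 0.05, the siNRP1#5 tests then comparing 2 lines, with 1.73% of all genes called. CPSF3 with siNRP1#3 came nearest of the others (adjusted p = 0.0881). It stood at 15.9, 24.1 and 16.7 CPM in HS578T against 32.6, 29.3 and 32.4 in siNT, without overlap (log2 -0.73 ± 0.21, adjusted p = 0.0591). CPSF6 did likewise, at 23.1, 19.7 and 17.3 CPM against 42.6, 29.7 and 30.2 (log2 -0.77 ± 0.22, adjusted p = 0.0534). In DESeq2 both factors passed there (adjusted p = 0.0163 for each). CPSF3 also passed in edgeR with the replicate block (adjusted p = 0.0479) and without the second siNRP1#3 library (adjusted p = 0.0315). In SUM159PT and MDA-MB-231 the same siRNA moved CPSF3 by 0.00 ± 0.21 and 0.12 ± 0.12.

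CDK12 fell with siNRP1#5 in MDA-MB-231, from 81.8, 83.2 and 61.6 CPM to 57.7, 59.4 and 47.4 CPM (log2 -0.44 ± 0.12 SE, adjusted p = 0.0110), where 29.4% of all genes were called. The lowest control lay only just above the knockdown samples. The call was lost when either the first or the second siNT library was left out (adjusted p = 0.0622 and 0.0513) and in a fit of these 2 groups alone (adjusted p = 0.141). With siNRP1#3, CDK12 stood at 58.6, 61.6 and 63.6 CPM and did not pass.

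CSTF2 rose with shNRP1#5 in MDA-MB-231, from 37.9, 31.3 and 32.0 CPM in shNT to 45.0, 46.6 and 45.7 CPM (log2 0.45 ± 0.13 SE, adjusted p = 0.0238; 20.7% of all genes called). The groups did not overlap, and the call was kept in 5 of 11 alternatives. Without the second or the third shNT library it was lost (adjusted p = 0.101 for each), as it was without the second or the third shNRP1#5 library (adjusted p = 0.0762 and 0.0717).

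In SUM159PT siNRP1#5, where only 2 samples were sequenced and 17.9% of all genes were called, 2 factors rose. NUDT21 went from 63.2, 55.9 and 64.7 CPM to 104 and 89.0 CPM (log2 0.67 ± 0.20 SE, adjusted p = 0.0282). The call was kept in 4 of 10 alternatives and lost without the first or second siNT library (adjusted p = 0.0611 and 0.0703). Without 1 knockdown library, which leaves 1 sample in the group, the log2 value of NUDT21 was 0.51. On the TPM scale its difference was 0.08. U2AF2 went from 229, 235 and 318 CPM to 290 and 692 CPM (log2 0.92 ± 0.28, adjusted p = 0.0339). The groups overlapped, and the change rested on the library at 692 CPM, since it was 0.17 without it, with 1 sample left in the group. The call was lost without the first or second siNT library (adjusted p = 0.104 and 0.0840).

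The transcripts of the factors were tested as well, a step added after the gene values were seen. Of 752 comparisons of a transcript with its NT control, 5 passed (2 higher and 3 lower, 0.665%), against 1.18% of all transcripts tested. Those higher were PCF11-207 and PCF11-203 with siNRP1#3 in MDA-MB-231, where 4.06% of all transcripts were called. Those lower were CPSF1-212 (log2 -1.13, adjusted p = 0.00871) and CPSF1-213 (log2 -1.33, adjusted p = 0.0142), long coding forms, with siNRP1#5 in HS578T (1.15% of all transcripts called), and CDK12-202 (log2 -0.58, adjusted p = 0.0160) with siNRP1#5 in MDA-MB-231 (4.68%).

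PCF11-207, the transcript shown above that ends in the first intron, rose in MDA-MB-231 siNRP1#3 from 6.55, 6.41 and 12.1 TPM in siNT to 17.4, 19.6 and 24.0 TPM (log2 1.3 ± 0.30 SE, adjusted p = 0.0274). All 3 knockdown samples stood above the 3 controls. PCF11-203, which ends further inside the gene, rose from 0.44, 0.51 and 0.23 TPM to 1.15, 1.06 and 1.46 TPM (log2 1.65 ± 0.36, adjusted p = 0.0171). PCF11-208, the coding form of 16 exons, was at 3.23, 2.29 and 1.77 TPM in siNT and 2.68, 2.69 and 2.01 TPM with siNRP1#3 (log2 0.06, adjusted p = 0.965). The call of PCF11-207 was kept in 2 of 7 alternatives, the replicate block and leaving out the third siNT library, and that of PCF11-203 in 4 of 7, and leaving out 1 library moved the log2 fold change of PCF11-207 between 1.12 and 1.69 (adjusted p = 0.0539 to 0.119 without any but the third siNT library). That of PCF11-203 was lost without the third siNRP1#3 or the first or the third siNT library (adjusted p = 0.0627, 0.0542 and 0.0690).

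In the other lines PCF11-207 stood at 10.4, 7.30 and 12.4 TPM with siNRP1#3 against 5.98, 6.18 and 6.87 in siNT of HS578T, and at 5.54, 5.86 and 15.4 against 3.97, 3.00 and 6.24 in SUM159PT. The HS578T groups did not overlap and the SUM159PT groups did. With siNRP1#5 in MDA-MB-231 it stood at 6.40, 4.96 and 9.93 TPM, overlapping siNT. The annotation lists PCF11-207 with a coding status not yet settled (class TEC), and reads from unspliced PCF11 RNA in that intron cannot be told apart from reads of this transcript.

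**Figure D4:**
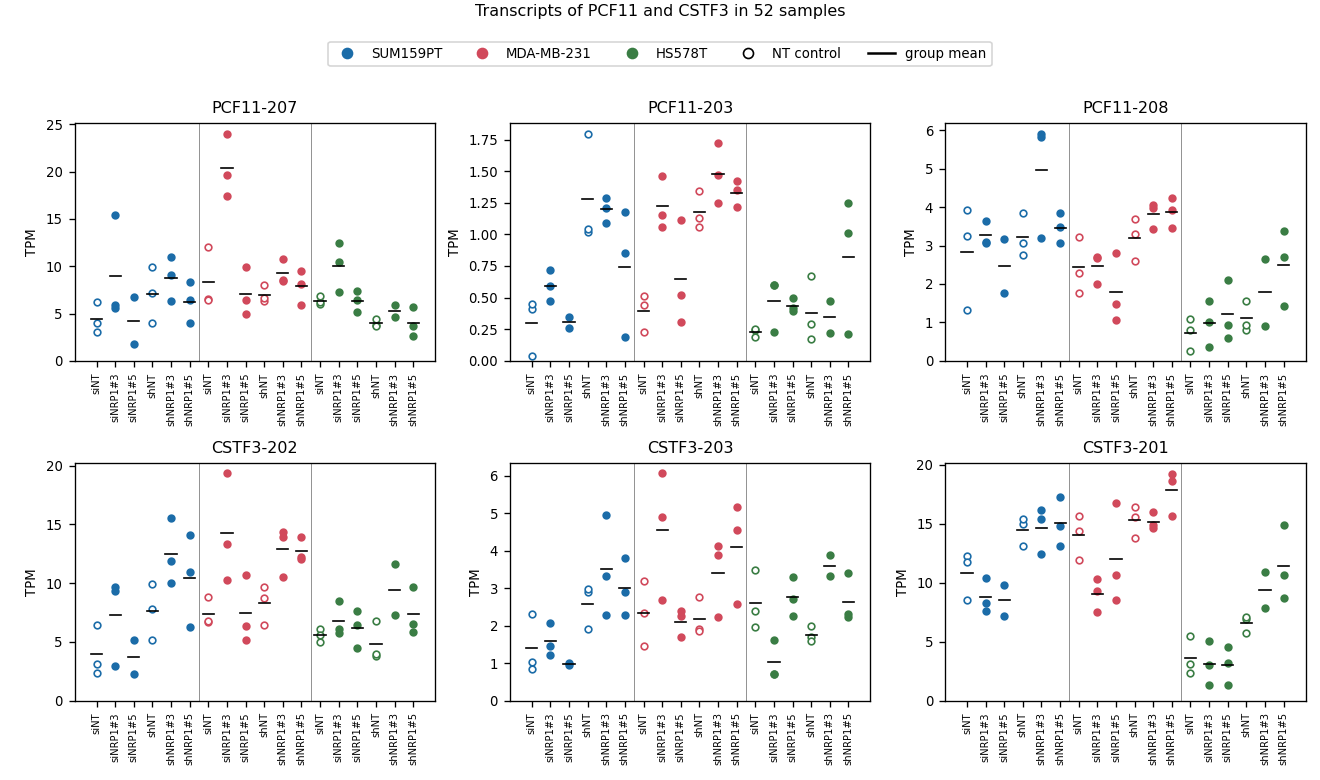
TPM (vertical axes, from 0) of 3 transcripts of PCF11 (top) and 3 of CSTF3 (bottom) in all 52 samples, by cell line and treatment, with open points for NT controls and a line at each group mean. In MDA-MB-231 siNRP1#3 the early-ending PCF11-207 stood at 17.4 to 24.0 TPM against 6.41 to 12.1 in siNT, while PCF11-208 stood at 2.01 to 2.69 against 1.77 to 3.23.

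The share of each factor's own transcripts that ended early was followed in the isoform percentages, as the sum over transcripts that stop before the last exon of the factor's most abundant one. Such transcripts were listed for 8 of the 10 factors. PCF11 and NUDT21 had 0 by this rule, PCF11 because PCF11-207 was itself its most abundant transcript. Many of the counted transcripts are annotated as retained introns, such as CPSF3-205, SNRNP70-205 and CPSF1-201 (mean shares of 16.7, 15.7 and 8.84% of their genes). In these, reads of unspliced RNA cannot be told apart from an early end. Over the 3 lines together 0 of 32 tests passed (exact two-sided permutation of labels within lines, smallest adjusted p = 0.104), and 5 had an unadjusted p under 0.05. With the most abundant coding transcript as the reference, which brings in all 10 factors, 0 of 40 passed (exact permutation, smallest adjusted p = 0.130) and 6 had an unadjusted p under 0.05.

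CSTF3 came nearest. Its early-ending share in MDA-MB-231 was 39.5, 37.2 and 47.3% in siNT and 71.7, 69.7 and 69.3% with siNRP1#3, without overlap, and in SUM159PT it was 24.9, 26.4 and 41.8% in siNT and 53.1, 35.8 and 65.6% with siNRP1#3, with overlap. In HS578T, where the share was high from the start, it was 66.6, 71.3 and 75.6% in siNT and 75.4, 69.6 and 87.8% with siNRP1#3, again with overlap. The mean difference over the lines was 18.6 percentage points, with 8 of 9 knockdown samples above their control mean (exact permutation p = 0.00325, adjusted p = 0.104). With shNRP1#3 it was 8.79 points, with 8 of 8 samples above (exact permutation p = 0.00700, adjusted p = 0.112), and with shNRP1#5 it was 2.00 points (exact permutation p = 0.611, adjusted p = 0.758). By the alternative rule, which leaves out only transcripts ending in the last 1000 bases of the gene, nearly all CSTF3 transcripts count as early and the difference with siNRP1#3 was 0.017 points.

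Behind the CSTF3 share in MDA-MB-231 siNRP1#3, the full-length CSTF3-201 went from 15.7, 14.4 and 11.9 TPM to 9.31, 10.4 and 7.53 TPM (log2 -0.60, adjusted p = 0.0710). CSTF3-202, a form of 2 exons, went from 6.67, 6.77 and 8.79 TPM to 13.3, 19.3 and 10.2 TPM (log2 0.99, adjusted p = 0.0576), and CSTF3-203 from 3.18, 1.47 and 2.33 TPM to 4.89, 6.06 and 2.69 TPM (log2 1.02, adjusted p = 0.172). For CSTF3-201 and CSTF3-202 the groups did not overlap, and none of the 3 passed. At the gene level CSTF3 did not change past the threshold in any of the 12 knockdown comparisons.

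For CDK12 with the shRNAs the mean difference was below 0 and neither value passed. It was -6.92 points with shNRP1#5, with 0 of 9 samples above their control mean (exact permutation p = 0.0118, adjusted p = 0.125), and -7.35 points with shNRP1#3, with 1 of 8 above (exact permutation p = 0.0193, adjusted p = 0.149). In HS578T it was 17.1, 29.9 and 18.9% in shNT and 2.56, 12.7 and 18.5% with shNRP1#5. By the alternative rule of 1000 bases the differences were 0.11 points with shNRP1#5 (exact permutation p = 0.774) and -1.37 points with shNRP1#3 (exact permutation p = 0.00450, adjusted p = 0.180). That rule counts 8 transcripts of CDK12 as early, the abundant coding forms CDK12-201 and CDK12-202 included, so it cannot check the differences above.

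The 2 kinds of control also differed from each other. The shNT and siNT samples differ in delivery, selection and time of harvest together, and these cannot be told apart. Of 30 comparisons of a factor 6 passed, 5 higher and 1 lower in shNT, against 17.6% of all genes tested (8.55% higher, 9.02% lower), while in limma on TPM all 6 calls were higher. In SUM159PT 10 of 10 factors had a log2 fold change above 0, with a median of 0.59 against -0.03 over all genes tested. In MDA-MB-231 it was 4 of 10, with a median of -0.05, and in HS578T 6 of 10, with a median of 0.43.

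CSTF2 showed the largest of these differences. In HS578T it was at 13.9, 12.8 and 23.3 CPM in siNT and 32.3, 52.4 and 45.4 CPM in shNT, without overlap, a 2.65-fold difference (log2 1.41 ± 0.30 SE, adjusted p = 0.00515) that passed in 12 of 12 alternatives; 17.9% of all genes were called there. In SUM159PT it was at 16.1, 18.2 and 20.8 CPM in siNT and 35.8, 26.2 and 43.7 CPM in shNT (log2 0.91 ± 0.25, adjusted p = 0.0234), in a comparison with 14.4% of all genes called. The SUM159PT call was lost without the first or the third shNT or the first or second siNT library (adjusted p = 0.0688, 0.121, 0.0882 and 0.0556).

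CDK12 in SUM159PT was at 49.3, 29.6 and 60.0 CPM in siNT and 106, 86.8 and 129.7 CPM in shNT (log2 1.19 ± 0.30, adjusted p = 0.0188), and NUDT21 there was higher by 0.56 ± 0.18 (adjusted p = 0.0450). CPSF6 in HS578T was at 42.6, 29.7 and 30.2 CPM in siNT and 49.9, 55.9 and 64.7 CPM in shNT (log2 0.76 ± 0.22, adjusted p = 0.0242). SNRNP70 in MDA-MB-231, the 1 factor lower in shNT, went from 228, 259 and 215 CPM to 180, 196 and 183 CPM (log2 -0.36 ± 0.12, adjusted p = 0.0376; 20.6% of all genes called). The call of CDK12 was lost without the first or the third shNT or the first or second siNT library (adjusted p = 0.0535, 0.0902, 0.0556 and 0.0685), that of CPSF6 without the second or the third library of either group (adjusted p = 0.0615 to 0.111), that of NUDT21 without any 1 of the 6 libraries (adjusted p = 0.0529 to 0.205) and that of SNRNP70 without any but the third siNT library (adjusted p = 0.0632 to 0.153).

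Other genes of the pathway were taken from 4 lists. Of 15 further 3′ end genes, 8 gene comparisons rose and 9 fell with knockdown out of 180 (9.44%, against 11.3% of all genes). CPSF4, the zinc finger subunit of CPSF, fell with siNRP1#3 in all 3 lines (log2 -1.36 for SUM159PT, -0.61 for MDA-MB-231 and -0.84 for HS578T) and with siNRP1#5 in MDA-MB-231 (-0.38) and HS578T (-0.81). Neither shRNA gave a call of CPSF4 in any line (log2 -0.26 to 0.08). XRN2, the exonuclease that trails the polymerase after the cut, fell with siNRP1#3 in all 3 lines (-0.99, -1.02 and -0.86 in the same order). With siNRP1#5, shNRP1#3 and shNRP1#5 XRN2 was not called in any line (log2 -0.10 to 0.33). CLP1, the partner of PCF11 in CFIIm, rose with siNRP1#5 in all 3 lines (0.99, 0.56 and 0.61) and with siNRP1#3 in MDA-MB-231 (0.50). Its SUM159PT siNRP1#5 value rests on 2 samples. With shNRP1#5, of the same sequence, CLP1 changed by 0.09, 0.23 and 0.25, without a call. The HS578T siNRP1#5 values of CPSF4 and CLP1 (edgeR adjusted p = 0.0201 and 0.0493) come from libraries with MDA-MB-231 markers at 12.0 to 22.7%. Those of HS578T siNRP1#3 held 1.94 to 6.70%, and the part of these markers was not tested.

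Among the partner, paralogue and anti-terminator genes around CDK12, 2 comparisons rose and 5 fell of 48 (14.6%, against 11.3% of all genes here and for the next lists). CCNK, the cyclin of CDK12, fell with siNRP1#3 in SUM159PT (-0.77) and MDA-MB-231 (-1.02) and rose with siNRP1#5 in SUM159PT (0.87). With either shRNA CCNK was not called in any line (log2 -0.04 to 0.36). SCAF8, which holds back early ends, fell in MDA-MB-231 with siNRP1#3 and siNRP1#5 (-0.75 and -0.38), and SCAF4 fell with siNRP1#5 in MDA-MB-231 (-0.34) and rose with it in HS578T (0.67). Of the U1, U2AF and branch site genes, 5 comparisons rose and 1 fell of 60 (10%). The branch site protein SF1 was the 1 that fell, with siNRP1#3 in MDA-MB-231 (-0.34), and it rose in SUM159PT siNRP1#5 (0.70). SNRPC, a U1 protein, rose with siNRP1#5 in SUM159PT (1.15) and MDA-MB-231 (0.46), and U2AF1, the partner of U2AF2, rose in SUM159PT siNRP1#5 (1.03), a group of 2 libraries. Of long DNA repair genes known to depend on CDK12, 2 rose and 5 fell of 96 (7.29%). BRCA2 fell with siNRP1#5 in MDA-MB-231 (-0.94) and rose with it in HS578T (1.49), ATM fell in SUM159PT (-1.24) and MDA-MB-231 (-0.92) with the same siRNA, and BARD1 fell with it in MDA-MB-231 (-0.86). The HS578T siNRP1#5 values of BRCA2 and SCAF4 come from the libraries that hold MDA-MB-231 markers at 12.0 to 22.7%, and in the NT controls these genes were lower in HS578T than in MDA-MB-231 (log2 -2.53 and -1.46). The part of these markers in the result was not tested.

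Between shNT and siNT, the 4 lists in that order had 7 higher and 2 lower of 45 (20%), 0 of 12 called (2 at an unadjusted p under 0.05, and 1 called in DESeq2 and in limma on TPM), 4 higher and 1 lower of 15 (33.3%) and 8 higher and 0 lower of 24 (33.3%), against 17.6% of all genes. FANCD2, a Fanconi anaemia protein, was higher in shNT in 3 of 3 lines (1.45, 0.34 and 1.83), FANCI in SUM159PT and HS578T (1.38 and 1.89) and BRCA1 in the same lines (1.12 and 1.61). CLP1 (0.93 and 0.76) and CSTF1, a CstF subunit (0.61 and 0.85), were higher in shNT of SUM159PT and HS578T, and PABPN1, the nuclear poly(A)-binding protein, in HS578T (0.95). Of the U1 and U2AF genes, SNRPA was higher in SUM159PT (0.67) and lower in MDA-MB-231 (-0.43), U2AF1 was higher in SUM159PT (0.56) and SNRPC in HS578T (0.63).

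Between the NT controls of the lines the 4 lists had 12 higher and 18 lower of 45 (66.7%), 1 and 6 of 12 (58.3%), 4 and 4 of 15 (53.3%) and 3 and 12 of 24 (62.5%), against 67.1% of all genes. HS578T was below MDA-MB-231 and SUM159PT in CPSF2 (-1.21 and -0.72) and WDR33 (-0.70 and -0.96), both CPSF subunits, in CSTF2T, the paralogue of CSTF2 (-1.38 and -1.14), in CCNK (-1.19 and -0.37), SCAF4 (-1.46 and -1.28) and SCAF8 (-1.03 and -0.93), and in BRCA2 (-2.53 and -1.91), BARD1 (-1.82 and -1.22) and BRCA1 (-0.86 and -1.29). SNRPA was above both (0.79 and 0.32). U2AF1 was lower in HS578T (-0.99) and MDA-MB-231 (-1.14) than in SUM159PT, and SNRPC was higher in both (0.50 and 0.46).

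For each factor, the gene whose group means followed it most closely was found among 23415 genes, by Pearson's r over the 18 group means taken as deviations from the mean of their line. The points of a line are deviations from the same mean and are not independent, so r is given as a description. CSTF3 was followed most closely by CPSF6, another of the 10 (r = 0.946), and U2AF2 by SF1, the branch site protein (0.954). CPSF3 was nearest to BRCA1 (0.958), CSTF2 to TOE1 (0.974), CPSF6 to EXOSC10 (0.955), CDK12 to NBPF1 (0.951) and NUDT21 to RBM27 (0.939). CPSF1 was nearest to VIPAS39 (0.884), SNRNP70 to CLASRP (0.899) and PCF11 to LINC00518 (0.866), the 3 weakest of these values.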

How the data were processed

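Per the labels and the study's methods, the authors trimmed reads with Trim Galore 0.6.5 after FastQC 0.11.9, aligned them to GRCh38 with STAR 2.7.2b and quantified genes and transcripts with RSEM 1.3.3. The deposited tables hold the expected counts of RSEM, TPM and, per transcript, the isoform percent, which the authors' RSEM run derived for each gene. Every column of per-sample values was matched to a sample, and 0 were left unmatched. RSEM divides reads that fit several transcripts, so values of overlapping transcripts depend on that division.

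Expected counts were rounded and tested per cell line with edgeR 4.0.16 (R 4.3.3; filterByExpr, TMM, robust glmQLFit, glmQLFTest) over 6 groups, each siNRP1 against siNT and each shNRP1 against shNT. The 18 NT samples were fitted together for differences between lines (the mean of the siNT and shNT differences), and all 52 for the F test between lines. Adjusted p-values are Benjamini-Hochberg over all genes or transcripts tested in a comparison, with a threshold of 0.05. SE is the absolute log2 fold change over the square root of F. DESeq2 1.42.0, limma 3.58.1 on log2(TPM + 0.5), no low-count filter, the 2 groups alone, a replicate block and leaving out each replicate were the alternatives. Exact permutation tests were run in Python 3.11.15 with scipy 1.17.1. Scripts were tested on simulated data. Transcript positions came from a GRCh38 annotation that holds all 94 transcripts of the factors and NRP1; the authors' release may differ. Markers of another line were genes at most 0.5 CPM in the NT controls of one line and at least 20 CPM in those of the other.

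The members and the gene lists were chosen with earlier results of these data known. Of each list, the 3 genes called in the most comparisons of a kind (ties by the larger change), and for each factor the gene with the highest r, were named. Replicates with the same number deviated together (every correlation over 0.1 in 3 pairs) in 6 comparisons, SUM159PT siNRP1#3 and shNRP1#3, MDA-MB-231 siNRP1#5, shNRP1#3 and shNT against siNT, and HS578T shNRP1#5. No 2 replicates agreed within sampling noise. Protein sequences were not used here, and samples that the authors removed were not analysed here.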

Additional observations from a re-analysis of the deposited data

Results flagged for a closer look

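CPSF1 with siNRP1#5 was singled out because its change differed between the 3 cell lines by a test of the difference itself (edgeR F test, adjusted p = 0.000658; 0.000607 with a replicate block). It fell by 1.12 on the log2 scale in HS578T and changed by -0.19 in SUM159PT and 0.09 in MDA-MB-231. The test rests on the 3 HS578T siNRP1#5 libraries, which hold 12.0 to 22.7% of the level of the MDA-MB-231 markers, and between the other lines alone the adjusted p was 0.664.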

How the results depend on the processing

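For the 27 gene-level calls named in the text, 282 alternative settings were run. In 206 the direction and the call were kept, in 73 the direction was kept and the threshold was missed, and in 3 the direction was reversed: SNRNP70 in HS578T against SUM159PT and CSTF2 in MDA-MB-231 against SUM159PT, both -0.09 over shNT alone, and CPSF3 in MDA-MB-231 against SUM159PT, 0.13 in limma on TPM. The cause was not tested. Knockdown calls numbered 4 to 8 when 1 library was left out. Calls between shNT and siNT numbered 10 in DESeq2 and 10 with the replicate block, and 3 to 6 when 1 library was left out (3 without the first or the third shNT or the first siNT library of SUM159PT). Calls between lines numbered 12 to 13 with a replicate number left out and 20 in limma on TPM. The test between lines gave 0 calls without the HS578T siNRP1#5 libraries. Early-ending shares gave 0 calls in every setting. With a replicate number left out, the smallest possible exact permutation p was 0.00926 or 0.0185, adjusted over 32 tests. A single test could not pass there, so those settings cannot check the result. By the rule of 1000 bases nearly all transcripts of CSTF3, CDK12 and PCF11 count as early, so it cannot check these factors. In the comparisons whose numbers pair the samples, the replicate block changed no call of a factor; it moved the count over all genes from 186 to 331 in HS578T shNRP1#5 and from 281 to 452 in SUM159PT shNRP1#3. In HS578T shNRP1#3, which has only 2 pairs (correlations of 0.108 and 0.586), it gave 18 against 7. In SUM159PT shNT against siNT, whose numbers do not pair, it gave 4359 against 2890. On the TPM scale the median log2 difference of all genes moved by -0.45 for HS578T against MDA-MB-231, -0.15 for HS578T against SUM159PT and 0.27 for MDA-MB-231 against SUM159PT, and by -0.15 to 0.14 within the lines. Depth did not limit the gene values, the lowest being 276 expected counts; transcripts rest on fewer.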

Other observations

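The NRP1-204 share itself was far from its controls with siNRP1#3, which spares the soluble form by design. It was 64.6 to 77.6% over the 9 siNRP1#3 samples against 2.86 to 31.5% in siNT. The mean level of NRP1-204 was also higher than in siNT, at 17.8 against 5.21 TPM in SUM159PT, where samples overlapped. It was 21.1 against 6.96 TPM in MDA-MB-231 and 16.5 against 9.26 TPM in HS578T. With shNRP1#3, which has another sequence and also spares the soluble form by design, the mean of NRP1-204 was below shNT. It was at 8.56 against 11.3, 11.9 against 18.9 and 6.335 against 8.06 TPM in the same order. With siNRP1#5 in MDA-MB-231 the share was 3.93, 48.2 and 1.38%, where NRP1 was at 1.85 to 3.21 CPM, so that these shares rest on few reads.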
